A study of Arabidopsis thaliana with 12 samples.

Results

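Developing lec1-4 seeds of Arabidopsis thaliana were compared with wild-type Col-0-2 seeds at 9 days after pollination, with 3 libraries in each group. Of the 33602 gene IDs in the deposited tables, 19667 had at least 1 FPKM (fragments per kilobase of transcript, scaled to library size) in at least 3 of these 6 libraries, and these were tested. They comprised 19559 nuclear genes and 108 organelle genes (83 plastid IDs starting ATCG and 25 mitochondrial IDs starting ATMG), which are reported apart. The value that decided entry, rank 3 from the top of the 6, lay between 1 and 1.1 FPKM for 166 genes just inside this limit, and between 0.9 and 1 FPKM for 176 genes just outside it.

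The series holds 12 libraries in 4 groups of 3: lec1-4, dellaq and 2 wild-type sets, Col-0-2 and Col-0-1. The labels give the genotype of lec1-4 by that name alone, without describing the allele, and call both Col-0 sets wild type. Which of the wild-type sets was grown beside lec1-4 is not stated, so the change against Col-0-1 is given beside the change against Col-0-2. Growth was at 22 °C in long days (16 h light, 8 h dark), a needle was used to free the seeds from siliques, and the libraries were made from poly-A RNA with random primers. Nothing in the labels states that replicates were separate plants, so the p-values measure a spread between samples that may be technical.

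LEC1 (LEAFY COTYLEDON1) is the B subunit of a nuclear factor Y, a complex of A, B and C subunits that binds CCAAT sequences. Together with the B3-domain factors LEC2, FUS3 and ABI3 it is known to promote embryo maturation, the phase in which seeds deposit oil and storage protein and acquire tolerance of drying. Loss of LEC1 is known to give embryos with leaf-like cotyledons that bear trichomes.

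LEC1 itself checked the labels. It had 2.63, 2.38 and 3.42 FPKM in the 3 lec1-4 libraries, against 123, 124 and 124 FPKM in the Col-0-2 libraries. The groups did not overlap, and the log2 change was -5.04 (SE 0.26, limma adjusted p = 1.2e-08). Log2 changes here are lec1-4 minus wild type on log2(FPKM + 1), a scale on which changes at low FPKM come out too small, and adjusted p-values are from limma with Benjamini-Hochberg adjustment over all genes tested. The Col-0-1 libraries had 80.8, 93.2 and 67.5 FPKM of LEC1, with a log2 change of -4.42 against that set.

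Library facts stood beside the groups. Estimated depth was 13.7 to 15.3 M fragments in lec1-4 and 14.9 to 19.4 M in Col-0-2, inferred from steps between low values. Values summed over plastid genes were 127 to 186 FPKM in lec1-4, 4523 to 5039 FPKM in Col-0-2 and 172 to 251 FPKM in Col-0-1. Mitochondrial sums were 88.7 to 112 FPKM in lec1-4, 156 to 253 FPKM in Col-0-2 and 70.2 to 102 FPKM in Col-0-1. Nuclear rRNA loci went the other way, with 1115 to 1406 FPKM in lec1-4, 43.3 to 82.3 FPKM in Col-0-2 and 959 to 1408 FPKM in Col-0-1. Across genes, a library's deviation from the mean of all libraries correlated with exon length at a rho of 0.23 to 0.246 in lec1-4, -0.283 to -0.218 in Col-0-2 and 0.276 to 0.311 in Col-0-1. Thus Col-0-2 stood apart from lec1-4 and Col-0-1 in the organelle and rRNA sums and in the sign of the length relation. The dellaq libraries lay on the side of Col-0-2. They had plastid sums of 7116 to 8593 FPKM, rRNA sums of 107 to 181 FPKM and a rho of -0.166 to -0.138. The lec1-4 genotype and these library properties cannot be told apart in the comparison with Col-0-2. Between the wild-type sets themselves, 12996 of the 19559 nuclear genes (66.4%) passed the same test.

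Of the nuclear genes, 8525 were higher in lec1-4 than in Col-0-2 (43.6% of those tested), 4568 were lower (23.4%) and 6466 did not pass. Among the called genes, 928 rose and 1192 fell by at least 1 on the log2 scale, and 132 rose and 231 fell by at least 2. The median change of all nuclear genes was 0.14, and the lec1-4 and Col-0-2 libraries did not overlap for 13988 nuclear genes (71.5%). The balance of directions depended on scaling: genes that were higher made up 65.1% of the nuclear calls as tested, 48.3% (5942 higher, 6363 lower) after median-ratio scaling, 76.3% (10961 higher, 3410 lower) with equal nuclear sums, and 49.3% (5871 higher, 6032 lower) after the trend over exon length and GC content was removed. These scalings moved the median change to -0.01, 0.27 and -0.01. Small changes below are to be read beside this shift.

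Direction varied with gene level and with gene length. Among the 1299 nuclear genes averaging at least 100 FPKM, 327 (25.2%) were higher and 716 (55.1%) were lower, with a median change of -0.2. Among the 7423 genes averaging 5 to 20 FPKM, 49.6% were higher and 16.3% were lower. Among the shortest genes, with 72 to 1230 exon bases, 23.5% were higher and 44.3% were lower. Among the longest, from 2368 to 16614 bases, 61.5% were higher and 9.0% were lower. The same genes set against Col-0-1 had 18.8% higher and 10.3% lower among the shortest genes, and 12.2% higher and 9.7% lower among the longest. The part of the length trend in single calls was not tested, beyond the values given with that trend removed.

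**Figure D1:**
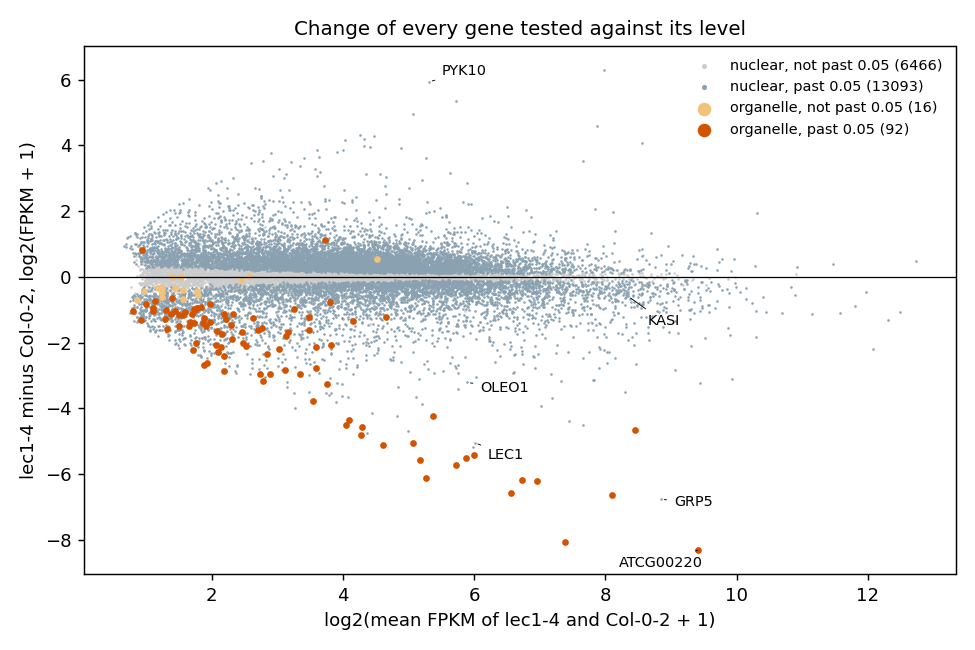
Change of every gene tested (lec1-4 minus Col-0-2, log2(FPKM + 1)) against its level (log2 of the mean FPKM of both groups plus 1), with 1 point per gene. Organelle genes (orange) lay mostly below zero, down to -8.32 for ATCG00220, while LEC1 lay at -5.04 and PYK10, among the largest nuclear rises, at 5.93.

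Against Col-0-1, 3200 of the same nuclear genes were higher in lec1-4 (16.4%) and 2080 were lower (10.6%). Passing against both sets in the same direction was met by 1655 nuclear genes that were higher (8.46%) and 795 that were lower (4.06%). Of these, 144 rose and 75 fell by at least 1 on the log2 scale against each set. In another 1429 nuclear genes both calls were made with opposite signs, so that lec1-4 lay between the wild-type sets. Gene groups are described next in the order of their roles, each count to be read against the shares just given. In all, 25 lists held 462 genes.

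The maturation regulators were more often higher than lower against Col-0-2, and more often lower than higher against Col-0-1. Of 22 listed, 21 were tested, 13 were higher in lec1-4 than in Col-0-2 (61.9%), 3 were lower (14.3%) and 5 did not pass. The shares of all nuclear genes were 43.6% and 23.4%. The median change of the list was 0.28, beside 0.14 for all nuclear genes. Against Col-0-1, 3 were higher and 8 were lower. The count lower than Col-0-2 was 1 without Col-0-2 replicate 3 and 0 with equal nuclear sums. LEC2, a B3 activator of maturation, had 28.2, 31.5 and 25.2 FPKM in lec1-4, against 14.4, 12.6 and 15.2 FPKM in Col-0-2 and 17.1, 18.7 and 14.2 FPKM in Col-0-1. The lec1-4 libraries lay above all 6 wild-type libraries, and the log2 change was 0.96 (SE 0.11, limma adjusted p = 9.0e-06) against Col-0-2 and 0.73 against Col-0-1 (adjusted p = 0.00039).

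FUS3, a second B3 activator, had 111, 97.5 and 101 FPKM in lec1-4, against 41.5, 48.5 and 45.9 FPKM in Col-0-2 and 126, 113 and 140 FPKM in Col-0-1. It was higher than Col-0-2 by a log2 change of 1.17 (SE 0.08, limma adjusted p = 1.6e-07), whereas against Col-0-1 the change was -0.29 (adjusted p = 0.021). The direction for FUS3 thus depended on the wild-type set. ABI3, the B3 factor that also carries abscisic acid signals, had 31.3, 26.7 and 33.3 FPKM in lec1-4, against 33.6, 36.2 and 39.9 FPKM in Col-0-2 and 83.8, 79.5 and 89.6 FPKM in Col-0-1. Every lec1-4 library lay below every wild-type library, and the log2 change was -0.26 (SE 0.08, adjusted p = 0.0133) against Col-0-2 and -1.44 (adjusted p = 1.8e-07) against Col-0-1. The smaller of these calls for ABI3 was lost with equal nuclear sums (-0.12, adjusted p = 0.22), without lec1-4 replicate 2 (-0.17, adjusted p = 0.0624) and without Col-0-2 replicate 3 (-0.20, adjusted p = 0.0627).

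ABI5, a bZIP factor of abscisic acid responses late in seed development, had 14, 12.8 and 16.8 FPKM in lec1-4, against 6.04, 6.05 and 5.65 FPKM in Col-0-2. It lay above both wild-type sets, with log2 changes of 1.16 (SE 0.12, limma adjusted p = 3.5e-06) and 1.20 (adjusted p = 1.6e-05 against Col-0-1). The other bZIP factors DPBF2 (bZIP67) and EEL were higher than Col-0-2 by 0.59 and 0.52 and lower than Col-0-1, with changes of -0.55 and -0.84. WRI1, the AP2 factor that activates fatty acid synthesis genes, had 157, 153 and 152 FPKM in lec1-4, against 149, 138 and 144 FPKM in Col-0-2 and 194, 206 and 207 FPKM in Col-0-1. The difference of 0.10 from Col-0-2 did not pass (SE 0.04, adjusted p = 0.0546) and passed with equal nuclear sums (0.25, adjusted p = 0.00024) and without Col-0-2 replicate 1 (0.13, adjusted p = 0.0354). Against Col-0-1, WRI1 was lower, with a change of -0.39 (adjusted p = 4.1e-05).

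AGL15, a MADS factor that favours embryo identity, averaged close to Col-0-2, with a change of 0.00 (SE 0.08, limma adjusted p = 0.973) and overlapping libraries, and was lower than Col-0-1 by a change of -1.2 (adjusted p = 6.0e-07). Among the repressors of maturation genes, the B3 proteins HSL1 and VAL3 were higher than Col-0-2, by 0.70 and 0.74, and HSI2 was lower, by a change of -0.15. The HSI2 call was lost with equal nuclear sums (-0.01, adjusted p = 0.921). Against Col-0-1, HSI2 was lower (-0.54), while HSL1 (-0.16) and VAL3 (0.19) did not pass. The bZIP factor gene BZIP53 was listed at 0 in all 9 libraries of these groups.

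**Figure D2:**
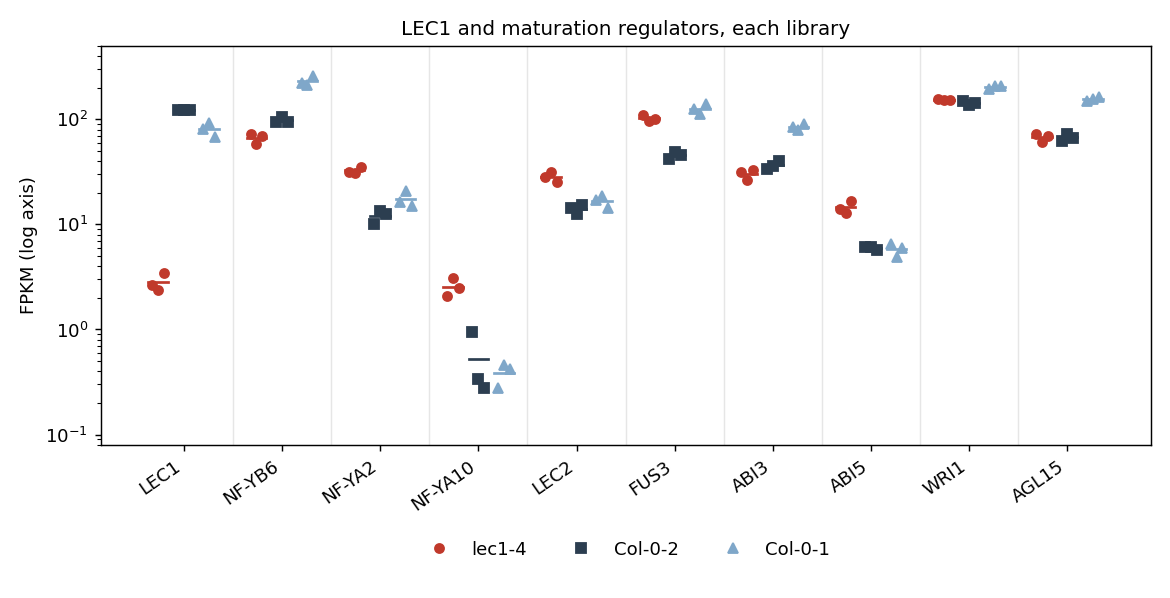
FPKM of LEC1, nuclear factor Y subunits and maturation regulators in each library (log axis), for lec1-4, Col-0-2 and Col-0-1 from left to right in each panel, with a horizontal line at each group mean. LEC1 lay at 2.38 to 3.42 FPKM in lec1-4 seeds, LEC2 and ABI5 lay above both wild-type sets, and FUS3 lay above Col-0-2 and below Col-0-1.

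Of the 19 nuclear factor Y genes listed, LEC1 included, 8 were higher in lec1-4 than in Col-0-2 (42.1%) and 5 were lower (26.3%), shares near the 43.6% and 23.4% of all nuclear genes. Of the 19, 1 (NF-YA10) was tested through lec1-4 alone, and without it 7 of 18 were higher. The median change of 0.08 turned to -0.07 after median-ratio scaling, and the count of lower genes was 9 after that scaling and 8 after upper-quartile scaling. Against Col-0-1, 3 were higher and 8 were lower. NF-YB6 (LEC1-LIKE), the B subunit closest to LEC1, had 71.8, 58 and 69.2 FPKM in lec1-4, against 93.5, 106 and 94.1 FPKM in Col-0-2 and 224, 213 and 259 FPKM in Col-0-1. The groups did not overlap, and NF-YB6 fell by 0.56 on the log2 scale against Col-0-2 (SE 0.09, limma adjusted p = 0.00013), with a change of -1.79 against Col-0-1. Among the A subunits, which contact the CCAAT box, NF-YA2 had 31.9, 31.1 and 35.4 FPKM in lec1-4, against 10, 13.4 and 12.6 FPKM in Col-0-2 and 16.5, 20.8 and 15.1 FPKM in Col-0-1. The change of NF-YA2 was 1.38 against Col-0-2, beside 0.88 against Col-0-1 (adjusted p = 8.7e-07 and 0.00019). NF-YA10 was also higher than both sets at low levels, averaging 2.55 FPKM in lec1-4, against 0.523 FPKM in Col-0-2 and 0.385 FPKM in Col-0-1. NF-YA5 and NF-YA6 were higher than Col-0-2 (0.52 and 0.32) and lower than Col-0-1 (-0.86 and -0.83).

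Genes of plastid fatty acid synthesis, the pathway that turns pyruvate into the acyl chains of seed oil, were mostly lower. All 28 listed genes were tested, and 23 were lower in lec1-4 than in Col-0-2, 1 was higher and 4 did not pass. Their median change was -0.39, beside 0.14 for all nuclear genes. Nuclear genes averaging at least 100 FPKM, a level that several members reached, had a median of -0.2, with 55.1% lower. The FPKM of the 28 genes summed to 4973 to 5104 in lec1-4, against 6501 to 6704 in Col-0-2 and 7455 to 7494 in Col-0-1. Of the 28, 25 were lower and 1 was higher than Col-0-1, and 23 were lower than both sets. The count of lower genes was 26 after median-ratio scaling, 25 after the length and GC trend was removed and 15 with equal nuclear sums, and the median stayed below zero in each, at -0.55, -0.43 and -0.24.

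The 2 largest falls in the pathway were in the E2 subunits of the plastid pyruvate dehydrogenase, which makes acetyl-CoA. EMB3003 had 94.1, 90.2 and 89.8 FPKM in lec1-4, against 217, 216 and 225 FPKM in Col-0-2 and 199, 206 and 196 FPKM in Col-0-1. Its log2 change was -1.25 (SE 0.05, limma adjusted p = 7.5e-10), and -1.13 against Col-0-1. LTA2 had 126, 117 and 111 FPKM in lec1-4, against 241, 235 and 244 FPKM in Col-0-2 and 198, 207 and 186 FPKM in Col-0-1, a change of -1.02 (SE 0.05, adjusted p = 1.5e-08). For both genes all 3 lec1-4 libraries lay below all 6 wild-type libraries.

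Downstream, the enoyl-ACP reductase MOD1, which completes each elongation cycle, had 224, 215 and 219 FPKM in lec1-4, against 343, 363 and 363 FPKM in Col-0-2 and 351, 350 and 351 FPKM in Col-0-1. MOD1 fell by 0.70 on the log2 scale against Col-0-2 and by 0.68 against Col-0-1. The condensing enzyme KASI fell by 0.58 on the log2 scale (SE 0.04, limma adjusted p = 1.0e-07) and by 0.74 against Col-0-1, and the thioesterase FaTA, which releases finished chains, fell by 0.63 and by 0.57. Subunits of acetyl-CoA carboxylase, the committed step, had smaller values against Col-0-2: CAC1, CAC3 and BCCP2 were lower, at -0.19, -0.21 and -0.41, and CAC2 did not pass (-0.01, adjusted p = 0.793). Against Col-0-1 these 4 genes were lower, with changes between -0.86 and -0.62. The acyl carrier gene ACP4 was the 1 member higher than Col-0-2 (0.27, adjusted p = 0.00373), with no call against Col-0-1 (-0.14).

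**Figure D3:**
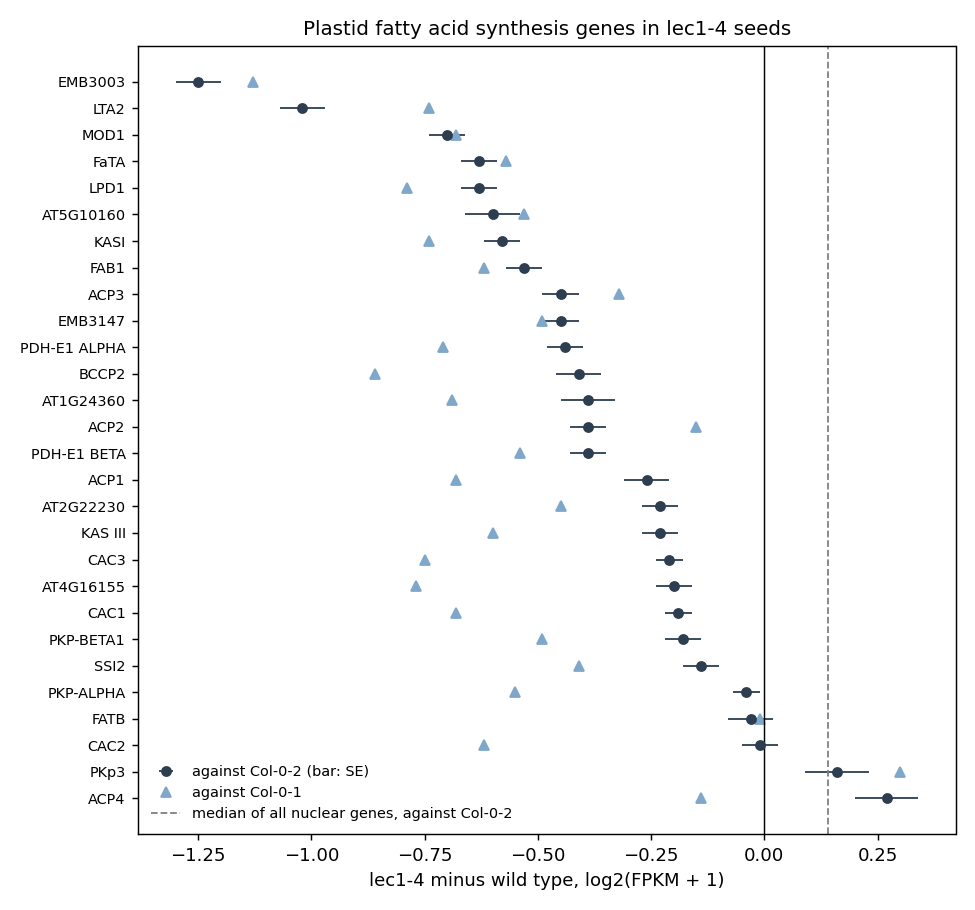
Log2 change of the 28 plastid fatty acid synthesis genes in lec1-4 seeds, ordered by the change against Col-0-2 (circles, bars give the SE), with the change against Col-0-1 (triangles). EMB3003 and LTA2 had the largest falls against Col-0-2 (-1.25 and -1.02), and 23 genes lay below zero against both sets with both calls made.

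Oil bodies, where triacylglycerol is stored under a coat of oleosins, and enzymes of oil assembly made up a list of 14 genes, of which 13 were tested, 1 of them through Col-0-2 alone. Of these, 7 were lower than Col-0-2 and 3 were higher, with a median of -0.74, and 11 were lower and 0 higher than Col-0-1. Without the gene that entered through Col-0-2 alone, 6 of 12 were lower than Col-0-2, with a median of -0.42, and 10 were lower than Col-0-1. OLEO1, the major seed oleosin, had 9.73, 5.56 and 19.6 FPKM in lec1-4, against 98.5, 129 and 87.5 FPKM in Col-0-2 and 723, 527 and 1044 FPKM in Col-0-1. Its change was -3.21 (SE 0.34, limma adjusted p = 5.4e-06) against Col-0-2 and -6.03 against Col-0-1. The lec1-4 libraries lay below all wild-type libraries, and the wild-type sets themselves did not overlap.

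KCS18 (FAE1), which elongates the fatty acids of seed oil, had 7.9, 5.6 and 9.77 FPKM in lec1-4, against 31.3, 38.3 and 30.7 FPKM in Col-0-2 and 89.8, 79.0 and 110.0 FPKM in Col-0-1, a change of -2.0 (SE 0.16, limma adjusted p = 4.1e-07). ROD1, which moves fatty acids through phosphatidylcholine, had 17.5, 17.5 and 16.9 FPKM in lec1-4, against 39.1, 47.8 and 40.3 FPKM in Col-0-2 and 56.6, 53.8 and 66.7 FPKM in Col-0-1, a change of -1.24 (SE 0.09, adjusted p = 1.4e-07). Both were lower than every wild-type library. The members that were higher than Col-0-2 were the oleosin AT3G01570 (0.57) and the desaturases FAD2 and FAD3 (0.27 and 0.30). After median-ratio scaling 0 members were called higher, and without lec1-4 replicate 3 only 1 was.

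The share of storage protein genes called lower than Col-0-2 was near that of all nuclear genes, while all 12 tested were lower than Col-0-1. Of 13 listed, 12 were tested and 1 was too low, and 3 were lower than Col-0-2, 0 were higher and 9 did not pass, with a median of -0.62 against Col-0-2 and of -3.64 against Col-0-1. Thus 25.0% were lower than Col-0-2 and 0.0% higher, beside 23.4% and 43.6% of all nuclear genes. The share of all nuclear genes lower than Col-0-1 was 10.6%. The count lower than Col-0-2 was 6 without lec1-4 replicate 3, and 1 member (PAP85) was called higher without lec1-4 replicate 2. The summed level of the list was 183 to 320 FPKM in lec1-4, 442 to 553 FPKM in Col-0-2 and 1410 to 4861 FPKM in Col-0-1. CRA1, a 12S globulin, had 48.0, 17.7 and 51.5 FPKM in lec1-4, against 67.2, 95.4 and 63.0 FPKM in Col-0-2 and 535, 266 and 896 FPKM in Col-0-1. The lec1-4 libraries lay below those of Col-0-2 without overlap, but the difference did not pass (-1.04, SE 0.44, limma adjusted p = 0.0516), and it passed when only the 6 compared libraries were fitted (adjusted p = 0.032) and after median-ratio scaling (adjusted p = 0.0311).

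The 3 storage genes that were lower than Col-0-2 were the vicilin-like cupin genes AT4G36700 and AT2G28490 and the 2S albumin SESA1. AT4G36700 had 165, 151 and 181 FPKM in lec1-4, against 304, 326 and 326 FPKM in Col-0-2 and 358, 321 and 382 FPKM in Col-0-1, a change of -0.94 (SE 0.08, limma adjusted p = 8.1e-07). SESA1 had 6.33, 2.24 and 8.59 FPKM in lec1-4, against 17.3, 18.6 and 16.0 FPKM in Col-0-2, a change of -1.58 (SE 0.49, adjusted p = 0.0123) that did not pass without lec1-4 replicate 2 (-1.12, adjusted p = 0.0595). The globulins CRU2 and CRU3 overlapped between lec1-4 and Col-0-2, at 0.923 to 5.13 and 0.265 to 10.6 FPKM in lec1-4, against 0.574 to 1.84 and 0.387 to 3.14 FPKM in Col-0-2. For each of the 6 storage genes given here, lec1-4 replicate 2 was the lowest lec1-4 library. The 2S albumin genes SESA1 to SESA4 lie in tandem as similar copies, between which fragments may have been split, and values of single copies are uncertain.

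Late embryogenesis abundant (LEA) genes, which encode hydrophilic proteins tied to tolerance of drying, included some of the larger rises. Of 22 listed genes, 14 were tested and 8 were too low, and of the 14, 4 entered through lec1-4 alone, since no Col-0-2 library reached 1 FPKM. Among those tested, 10 were higher than Col-0-2 and 2 were lower, and against Col-0-1 7 were higher and 1 was lower. Among the 10 that reached 1 FPKM in at least 1 library of each group, a subset chosen after seeing the data, 6 were higher and 2 lower than Col-0-2, 3 were higher and 1 lower than Col-0-1, and 2 were higher than both. LEA7 had 44.1, 31.3 and 49.2 FPKM in lec1-4, against 3.88, 5.27 and 2.48 FPKM in Col-0-2 and 13.8, 11.6 and 16.5 FPKM in Col-0-1, a change of 3.14 (SE 0.26, limma adjusted p = 6.1e-07) and of 1.49 against Col-0-1. LEA4-5 had 21.8, 10.1 and 34.5 FPKM in lec1-4, against 0.601, 0.787 and 0.626 FPKM in Col-0-2 and 1.26, 0.862 and 2.36 FPKM in Col-0-1. AT3G15670 had 23.8, 12.9 and 53.9 FPKM in lec1-4, and stayed under 1 FPKM in all 6 wild-type libraries. In these LEA genes lec1-4 replicate 3 was the highest and replicate 2 the lowest library, and the lec1-4 values still did not overlap either wild-type set. PER1, a peroxiredoxin of seeds, was higher than Col-0-2 (1.91) and lower than Col-0-1 (-1.39).

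The largest nuclear rise outside the rRNA loci was in PYK10, a beta-glucosidase stored in ER bodies, which are defence compartments of the endoplasmic reticulum. PYK10 had 76.3, 70.0 and 84.6 FPKM in lec1-4, against 0.199, 0.17 and 0.482 FPKM in Col-0-2 and 0.261, 0.297 and 0.597 FPKM in Col-0-1. The log2 change was 5.93 (SE 0.46, limma adjusted p = 3.4e-07) and 5.82 against Col-0-1. PBP1, a lectin that binds PYK10, had 37.6, 34.2 and 39.5 FPKM in lec1-4, against 1.37, 0.839 and 1.08 FPKM in Col-0-2, a change of 4.19. NAI2, needed to form ER bodies, had 16.6 to 21.4 FPKM in lec1-4, against 0.462 to 0.818 FPKM in Col-0-2, a change of 3.61. All 3 genes were under 2 FPKM in every wild-type library of both sets.

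Other genes with large rises that lay above all 6 wild-type libraries included LTL1, LTP2, AT2G15010, AT5G23820 and AT3G02480. The lipase gene LTL1 had 35, 30.9 and 40.1 FPKM in lec1-4, against 0.655, 0.82 and 0.987 FPKM in Col-0-2, with changes of 4.32 against Col-0-2 and 4.36 against Col-0-1. The lipid transfer protein gene LTP2 had 379, 316 and 414 FPKM in lec1-4, against 36.3, 31 and 26 FPKM in Col-0-2 and 90.8, 58.5 and 151 FPKM in Col-0-1, with changes of 3.53 and 1.97. The thionin gene AT2G15010 rose by 4.29 against Col-0-2 and by 3.19 against Col-0-1. AT5G23820, which encodes a lipid-recognition domain protein, had 15.1, 10.7 and 13.2 FPKM in lec1-4 and was listed at 0 in 5 of the 6 wild-type libraries. AT3G02480, a gene of the LEA family, rose by 3.61 against Col-0-2 and by 3.68 against Col-0-1.

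Some large rises against Col-0-2 came with much smaller values against Col-0-1. The Brix-domain ribosome assembly genes AT1G52930, MEE49 and IMP4 had 35.6 to 37.0, 37.2 to 40.2 and 21.4 to 22.1 FPKM in lec1-4. Col-0-2 had 1.02 to 1.76, 1.35 to 1.93 and 0.502 to 0.604 FPKM of these genes, whereas Col-0-1 had 26.1 to 28.9, 33.2 to 35 and 15.7 to 17.3 FPKM. Their changes were 3.97, 3.95 and 3.86 against Col-0-2, and 0.40, 0.20 and 0.37 against Col-0-1. The lec1-4 libraries of these 3 genes still lay above all 6 wild-type libraries, and AT1G52930 and IMP4 passed against Col-0-1 (limma adjusted p = 0.025 and 0.0163), while MEE49 did not (adjusted p = 0.208). AT5G05020 and AT1G62220 rose by 5.35 and 4.58 against Col-0-2, with values of 0.23 and 0.09 and no call against Col-0-1. The rRNA locus AT3G41979 had 458 to 527 FPKM in lec1-4, 4.39 to 7.09 FPKM in Col-0-2 and 318 to 474 FPKM in Col-0-1. The rRNA loci are near-identical copies of a repeat, so their single values are uncertain. Of the 4 listed, 3 were higher and 1 was lower than Col-0-2, and 0 passed against Col-0-1.

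Of the 12 largest nuclear falls, LEC1 and AT3G24250 also passed against Col-0-1. AT3G24250, a glycine-rich protein gene, had 15.3, 15.6 and 13.8 FPKM in lec1-4, against 324, 327 and 344 FPKM in Col-0-2 and 103, 122 and 109 FPKM in Col-0-1, with changes of -4.39 (SE 0.09, limma adjusted p = 1.8e-11) and -2.82. AT1G04660, another glycine-rich protein gene, had 147, 111 and 144 FPKM in lec1-4, against 1116, 1282 and 1373 FPKM in Col-0-2 and 619, 610 and 641 FPKM in Col-0-1, with changes of -3.23 and -2.22. The larger fall of GRP5, also a glycine-rich gene, was against Col-0-2 alone: it had 5.29, 7.56 and 8.86 FPKM in lec1-4, against 1248, 745 and 735 FPKM in Col-0-2 and 7.08, 7.39 and 7.86 FPKM in Col-0-1. ASN1, an asparagine synthetase induced by darkness, likewise had 0.761 to 1.49 FPKM in lec1-4, 24.4 to 107 FPKM in Col-0-2 and 0.993 to 1.88 FPKM in Col-0-1. Falls of this second kind, in GRP3S, GRP-3, KTI1, AT1G11850, AT3G23450, AT1G07135 and AT3G17050 as well, had changes of -3.93 or below against Col-0-2 and changes between -0.29 and 0.39 against Col-0-1.

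**Figure D4:**
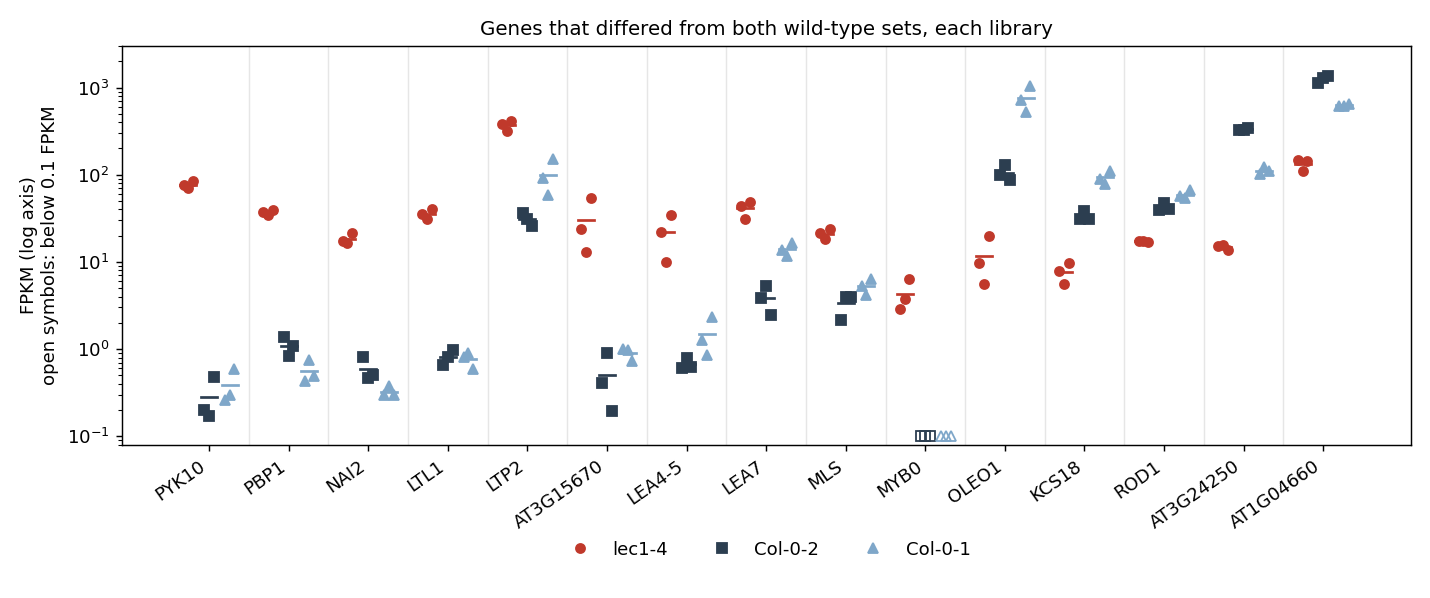
FPKM in each library (log axis) of genes whose lec1-4 libraries lay apart from all 6 wild-type libraries, for lec1-4, Col-0-2 and Col-0-1 from left to right, with a line at each group mean and open symbols for values below 0.1 FPKM. PYK10, PBP1, NAI2 and LTL1 stood at 16.6 to 84.6 FPKM in lec1-4 seeds, while OLEO1, KCS18, ROD1, AT3G24250 and AT1G04660 stood below both wild-type sets.

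Trichome genes that could be tested included several that were higher than both wild-type sets. Of 14 listed, 10 were tested, 3 of them through lec1-4 alone, and 4 were too low. Of those tested, 9 were higher than Col-0-2 and 0 lower, and 6 were higher than Col-0-1. Without the 3 that entered through lec1-4 alone, 6 of 7 were higher than Col-0-2 and 4 of 7 were higher than both sets, and with the filter of 5 FPKM only 2 members were called higher. The summed level of the list was 64.4 to 71.0 FPKM in lec1-4, 34.6 to 38.0 FPKM in Col-0-2 and 48.3 to 50.2 FPKM in Col-0-1. MYB0 (GLABRA1), the MYB factor that starts trichomes on leaves, had 2.89, 3.72 and 6.36 FPKM in lec1-4 and was listed at 0 in all 6 wild-type libraries. MYB23, its close relative, had 2.26, 1.42 and 2.02 FPKM in lec1-4 and was listed at 0 in the 3 Col-0-2 libraries and in 2 of the 3 Col-0-1 libraries. The bHLH partner EGL3 and the trichome inhibitor ETC1 were higher than both sets, by 0.84 and 1.31 against Col-0-2 and by 0.22 and 0.75 against Col-0-1.

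Of 15 genes of the stomatal lineage 12 were tested, 2 of them through lec1-4 alone. Of the 12, 10 were higher than Col-0-2 and 1 was lower. Against Col-0-1, 3 were higher and 4 were lower. Without the 2 that entered through lec1-4 alone, 8 of 10 were higher than Col-0-2, and 2 were higher and 4 lower than Col-0-1. SPCH, the bHLH factor that starts the lineage, had 11.6, 8.98 and 10 FPKM in lec1-4, against 1.32, 1.96 and 1.29 FPKM in Col-0-2 and 8.97, 7.47 and 9.36 FPKM in Col-0-1. Its change was 2.16 (SE 0.12, limma adjusted p = 2.5e-08) against Col-0-2 and 0.22 (adjusted p = 0.205) against Col-0-1. The secreted inhibitor EPF2 was higher than both sets, averaging 31.0 ± 8.63 FPKM in lec1-4, against 12.8 ± 4.27 FPKM in Col-0-2 and 3.43 ± 0.102 FPKM in Col-0-1 (SD, n = 3 each).

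Shoot and leaf identity genes gave 11 higher and 1 lower of 19 tested against Col-0-2, with 2 more too low, and 2 higher and 5 lower against Col-0-1. The homeobox gene KNAT1 and the abaxial identity genes KAN, AFO and YAB3 rose by 1.13, 0.98, 0.79 and 0.76 against Col-0-2, and changed by 0.02, 0.01, -0.10 and -0.18 against Col-0-1, where none passed. CUC1, which sets organ boundaries, was higher than both sets, at 13.7 ± 2.21 FPKM in lec1-4, against 8.11 ± 1.24 FPKM in Col-0-2 and 7.83 ± 1.25 FPKM in Col-0-1 (SD, n = 3 each).

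Nuclear photosynthesis genes were mostly lower than Col-0-1, with calls in both directions against Col-0-2. All 42 listed were tested, and 20 were higher (47.6%) and 10 lower (23.8%) than Col-0-2, shares near the 43.6% and 23.4% of all nuclear genes. Their median of 0.12, beside 0.14 for all nuclear genes, turned to -0.04 after median-ratio scaling. Against Col-0-1, 4 were higher and 35 lower, with a median of -0.42. Passing against both sets, 4 were higher and 9 were lower. The genes named below do not follow that proportion. The list summed to 17096 to 17543 FPKM in lec1-4, between 13711 to 15519 FPKM in Col-0-2 and 23164 to 26185 FPKM in Col-0-1. CA1, a carbonic anhydrase of chloroplasts, had 102, 97.2 and 94.3 FPKM in lec1-4, against 19.9, 20.2 and 20.8 FPKM in Col-0-2 and 54.0, 52.3 and 56.6 FPKM in Col-0-1. It rose by 2.21 against Col-0-2 (SE 0.06, limma adjusted p = 1.1e-10) and by 0.84 against Col-0-1. The light-harvesting gene LHCB6 was lower than both sets, at 246 ± 7.44 FPKM in lec1-4, against 420 ± 21.8 FPKM in Col-0-2 and 399 ± 6.36 FPKM in Col-0-1 (SD, n = 3 each). The Rubisco small subunit genes RBCS1B, RBCS2B and RBCS3B were higher than both sets, by 1.93, 1.83 and 1.99 against Col-0-2 and by 0.57, 0.60 and 0.36 against Col-0-1, though near-identical copies may share reads. Of 9 nuclear genes of plastid gene expression, 1 (SIG4) was tested through lec1-4 alone. Of the 9, 8 were higher and 0 lower than Col-0-2, and 2 were higher and 2 lower than Col-0-1. Without SIG4, 7 of 8 were higher than Col-0-2, and 1 was higher and 2 were lower than Col-0-1. The sigma factor SIG4 had 5.73, 6.58 and 5.08 FPKM in lec1-4, against 0.973, 0.802 and 0.487 FPKM in Col-0-2 and 2.89, 3.85 and 4.51 FPKM in Col-0-1.

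Organelle genes were mostly lower in lec1-4 than in Col-0-2. Of 108 tested, 90 were lower (83.3%), 2 were higher (1.85%) and 16 did not pass, with a median change of -1.49. The libraries of the 2 groups did not overlap for 85.2% of them. Organelle genes could enter the test through Col-0-2 alone, where they were high, and these values include any that did. How many did so is not given here. With the filter of 5 FPKM, 46 organelle genes were lower and 1 was higher. Plastid genes gave 71 lower and 1 higher of 83, and mitochondrial genes 19 lower and 1 higher of 25. ATCG00220 had 3.26, 3.75 and 2.77 FPKM in lec1-4, against 1270, 1422 and 1364 FPKM in Col-0-2 and 14.1, 4.47 and 7.7 FPKM in Col-0-1. ATCG00790 had 3.86, 4.18 and 5.53 FPKM in lec1-4, against 504, 554 and 569 FPKM in Col-0-2 and 6.93, 4.44 and 6.11 FPKM in Col-0-1. ATCG00390 was listed at 0 in 2 of the 3 lec1-4 libraries, against 311, 338 and 351 FPKM in Col-0-2, and was also listed at 0 in 2 of the 3 Col-0-1 libraries. Against Col-0-1, 5 organelle genes were lower (4.63%) and 2 were higher (1.85%). The 2 that were higher than Col-0-2, ATMG00020 and ATCG01180, changed by 1.12 and 0.82 (limma adjusted p = 0.00222 and 0.00362) and did not pass against Col-0-1 (0.35 and 0.09).

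Cell cycle genes gave 19 higher and 1 lower of 30 against Col-0-2, with a median of 0.28, and 11 higher and 2 lower against Col-0-1. The count of higher genes was 12 after median-ratio scaling and 11 after the length and GC trend was removed. TPX2, a spindle assembly factor, had 38.6, 37.2 and 35.3 FPKM in lec1-4, against 19.7, 21.0 and 20.7 FPKM in Col-0-2 and 35.4, 35.1 and 34.0 FPKM in Col-0-1, a change of 0.82 against Col-0-2 and of 0.08 against Col-0-1. The mitotic genes CYCB2;1, CDKB2;1 and CYCB1;1 were higher than both sets, by 0.68, 0.62 and 0.61 against Col-0-2 and by 0.33, 0.21 and 0.23 against Col-0-1.

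Hormone genes had calls in both directions, as did nuclear genes at large. Of 22 auxin genes, 5 were too low. Of the 17 tested, 1 of them through lec1-4 alone, 11 were higher (64.7%) and 4 lower (23.5%) than Col-0-2, beside 43.6% and 23.4% of all nuclear genes. Against both sets, 6 were higher and 4 lower, beside 8.46% and 4.06% of all nuclear genes. Without the gene that entered through lec1-4 alone, 10 of 16 were higher than Col-0-2 and 5 were higher than both sets. The auxin synthesis gene YUC3 had 7.53, 7.09 and 8.17 FPKM in lec1-4, against 2.04, 1.62 and 2.31 FPKM in Col-0-2 and 3.99, 4.44 and 4.66 FPKM in Col-0-1, a change of 1.53 (SE 0.11, limma adjusted p = 1.7e-07). YUC10, of the same family, went the other way, at 3.02 ± 0.245 FPKM in lec1-4, against 6.36 ± 0.876 FPKM in Col-0-2 and 7.94 ± 1.48 FPKM in Col-0-1 (SD, n = 3 each). MP, the auxin response factor that patterns the embryo, was higher than both sets, by 0.57 and 0.47.

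Abscisic acid genes gave 13 higher (68.4%) and 2 lower (10.5%) of 19 tested against Col-0-2, beside 43.6% and 23.4% of all nuclear genes. Of these 19, 1 was tested through lec1-4 alone, and 3 more listed genes were too low. Without that gene, 12 of 18 were higher. Against Col-0-1, 4 were higher and 1 was lower. NCED9, an abscisic acid synthesis enzyme of seeds, had 33.1, 31.5 and 32.9 FPKM in lec1-4, against 6.52, 8.1 and 8.15 FPKM in Col-0-2 and 26.3, 23.2 and 27.6 FPKM in Col-0-1. It rose by 1.97 (SE 0.10, limma adjusted p = 1.1e-08) against Col-0-2 and by 0.33 (adjusted p = 0.0286) against Col-0-1. Of 21 tested gibberellin genes, with 6 more too low, 11 were higher (52.4%) and 6 lower (28.6%) than Col-0-2, beside the same 43.6% and 23.4%. Against Col-0-1, 2 were higher and 7 lower. The receptor gene GID1B had 5.79, 6.53 and 8.62 FPKM in lec1-4, against 2.8, 2.34 and 2.67 FPKM in Col-0-2 and 2.65, 3.07 and 2.36 FPKM in Col-0-1, higher than both by 1.13 and 1.1. GA3OX1, which makes active gibberellin, rose by 1.99 against Col-0-2 and was lower than Col-0-1, with a change of -0.52.

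Genes of sugar, starch and amino acid supply gave 12 higher and 2 lower of 18 tested against Col-0-2, and 2 more were too low. Of the 18, 1 was tested through lec1-4 alone, and without it 11 of 17 were higher than Col-0-2. Against Col-0-1, 7 were higher and 4 lower, and the median was 0.02, beside 0.48 against Col-0-2. SUS2, a sucrose synthase of maturing seeds, had 4.28, 2.45 and 5.65 FPKM in lec1-4, against 19.5, 23.5 and 16.0 FPKM in Col-0-2 and 90.8, 67.2 and 120 FPKM in Col-0-1. It fell by 2.05 on the log2 scale (SE 0.24, limma adjusted p = 1.4e-05) and by 4.2 against Col-0-1. SUC5, a sucrose carrier of the endosperm, had 57.5, 51.1 and 53.7 FPKM in lec1-4, against 139, 130 and 143 FPKM in Col-0-2 and 83.3, 85.7 and 81.8 FPKM in Col-0-1. The starch enzymes SBE2.1 and ADG1 were higher than both sets, by 0.95 and 0.56 against Col-0-2 and by 0.49 and 0.25 against Col-0-1.

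Genes of lipid and reserve mobilisation, the glyoxylate cycle and beta-oxidation of seedlings, gave 7 higher and 2 lower of 14 against Col-0-2, with a median of 0.12 that turned to -0.03 after median-ratio scaling. The counts were 5 higher and 6 lower after the length and GC trend was removed, and 11 higher and 1 lower with equal nuclear sums. Against Col-0-1, 5 were higher and 3 lower. MLS, malate synthase of the glyoxylate cycle, had 21.6, 18.1 and 23.7 FPKM in lec1-4, against 2.16, 3.92 and 3.97 FPKM in Col-0-2 and 5.33, 4.12 and 6.3 FPKM in Col-0-1. It lay above all 6 wild-type libraries, with a change of 2.37 (SE 0.19, limma adjusted p = 4.0e-07) against Col-0-2 and of 1.83 against Col-0-1. PCK1, which starts sugar synthesis from oil, was higher than both sets by 0.46 and 0.79. The acyl-CoA oxidase ACX2 was lower than both sets, with changes of -0.36 and -0.18 (limma adjusted p = 2.5e-05 and 0.0138). In the whole list, 4 members were higher than both sets and 1 was lower than both.

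Seed coat and surface genes had calls in both directions against Col-0-2, as did nuclear genes at large. Flavonoid genes, which make the tannins of the seed coat, gave 5 higher and 5 lower of 16 tested against Col-0-2, with a median of -0.17, and 8 higher and 0 lower against Col-0-1. The regulator TT8 had 138, 141 and 133 FPKM in lec1-4, against 79.1, 78.9 and 83.5 FPKM in Col-0-2 and 130, 131 and 127 FPKM in Col-0-1. Another regulator, TT2, had 10.1, 12.5 and 11.8 FPKM in lec1-4, against 31.1, 22.6 and 25.1 FPKM in Col-0-2 and 8.58, 8.69 and 7.56 FPKM in Col-0-1. Mucilage genes gave 10 higher and 7 lower of 22 against Col-0-2, with the 45.5% that were higher near the 43.6% of all nuclear genes, and 1 higher and 2 lower against Col-0-1. Of the 22, 1 was tested through lec1-4 alone, and without it 9 of 21 were higher than Col-0-2. Epidermis and cuticle genes gave 8 higher and 8 lower of 21 against Col-0-2, and 7 higher and 1 lower against Col-0-1. PDF1, an epidermal marker gene of embryos, was higher than both sets, at 600, 550 and 625 FPKM in lec1-4, against 210, 242 and 245 FPKM in Col-0-2 and 411, 410 and 406 FPKM in Col-0-1.

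Wounding and touch genes gave 3 higher and 7 lower of 15 against Col-0-2, and 4 higher and 1 lower against Col-0-1; without Col-0-2 replicate 2 the count lower than Col-0-2 was 4. TCH3, a calmodulin-like gene induced by touch, had 31.6, 28.2 and 29.5 FPKM in lec1-4, against 168, 231 and 235 FPKM in Col-0-2 and 47.7, 49.1 and 41.9 FPKM in Col-0-1. Of 10 heat shock genes, 6 were tested, 2 of them through Col-0-2 alone; 4 were lower than both sets and 0 were higher. Of the 4 that reached 1 FPKM in both groups, 2 were lower than Col-0-2. HSP90.1, a cytosolic chaperone, had 8.3, 8.32 and 7.76 FPKM in lec1-4, against 13.7, 16.9 and 14.9 FPKM in Col-0-2 and 13.6, 11.3 and 11.1 FPKM in Col-0-1.

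**Figure D5:**
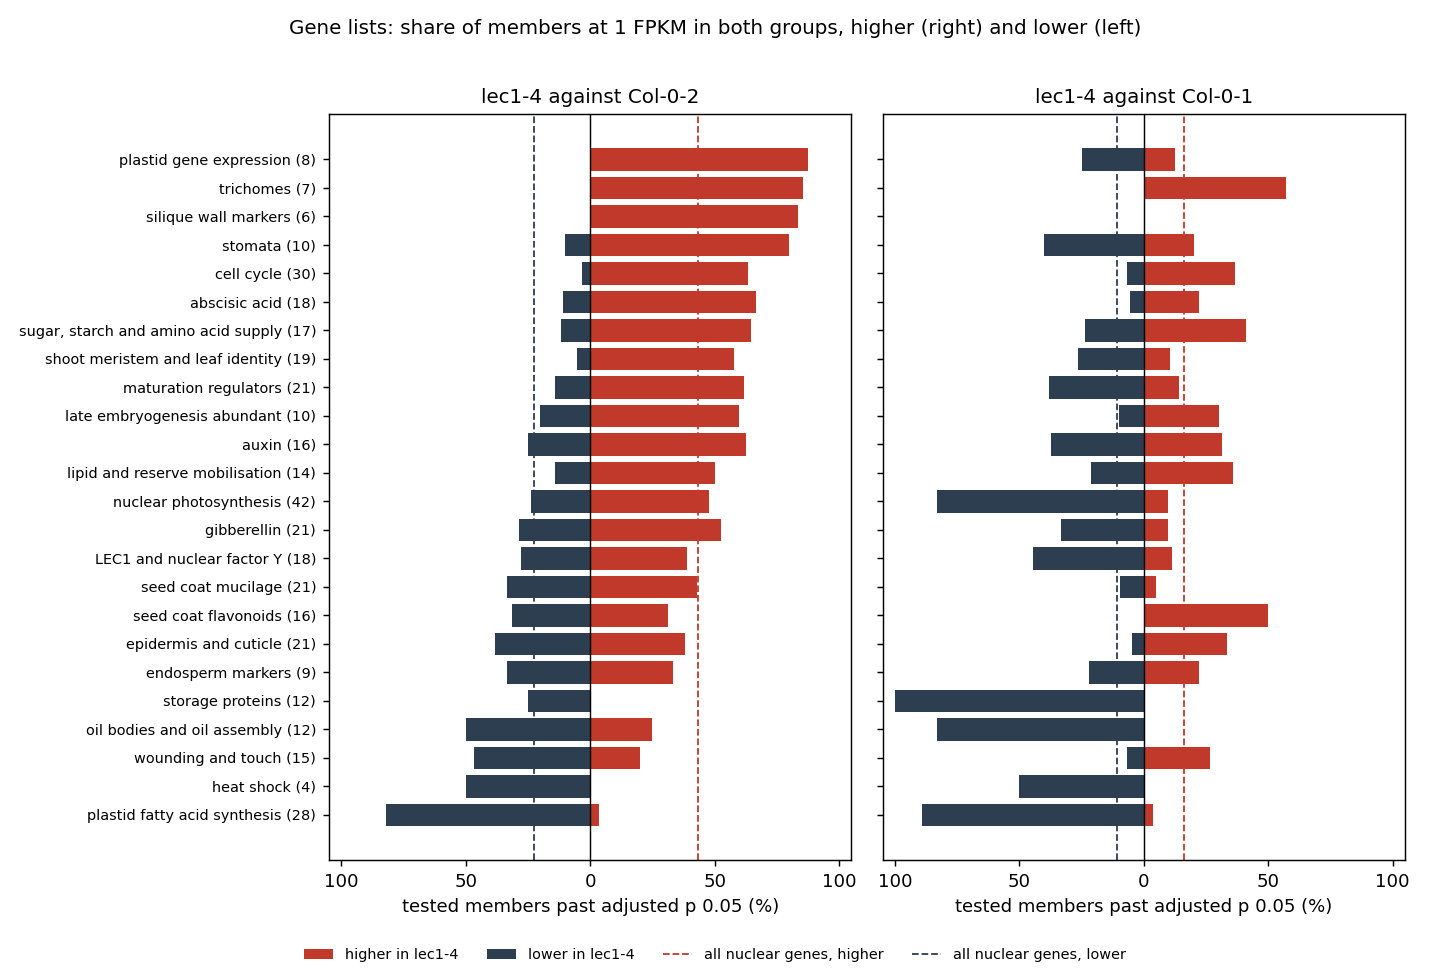
Share of the members of each gene list that reached 1 FPKM in at least 1 lec1-4 and 1 Col-0-2 library (number in brackets) that were higher (right) or lower (left) in lec1-4 seeds at an adjusted p of 0.05, against Col-0-2 on the left and Col-0-1 on the right, with dashed lines at the shares of all nuclear genes chosen in the same way. Plastid fatty acid synthesis and oil body genes extended to the left against both sets, and trichome genes to the right, while stomatal and photosynthesis genes differed between the panels.

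The tissue label was checked with markers of the parts of the seed and of the silique wall, which the needle dissection should remove. Embryo markers (LEC1, LEC2, FUS3, ABI3, CRA1, CRU3 and OLEO1) summed to 182 to 245 FPKM in lec1-4, 376 to 449 FPKM in Col-0-2 and 1105 to 2402 FPKM in Col-0-1, and 2 of the 7 were higher and 3 lower than Col-0-2. LEC1 alone averaged 2.81 FPKM in lec1-4, against 124 FPKM in Col-0-2. Because these markers include LEC1 and maturation genes, their sum cannot tell the share of embryo tissue in lec1-4 seeds. Seed coat markers (7 genes) summed to 1815 to 1909 FPKM in lec1-4, 1623 to 1856 FPKM in Col-0-2 and 1558 to 1747 FPKM in Col-0-1, with 2 higher and 2 lower than Col-0-2. Endosperm markers (7 genes) summed to 159 to 172 FPKM in lec1-4, 231 to 243 FPKM in Col-0-2 and 187 to 205 FPKM in Col-0-1, with 2 higher and 2 lower than Col-0-2. The lower sum than in Col-0-2 rested on SUC5, which averaged 54.1 FPKM in lec1-4 and 137 FPKM in Col-0-2. The endosperm gene IKU2 was listed at 0 in the 6 wild-type libraries and was under 0.1 FPKM in lec1-4. The longer endosperm list of 11 genes gave 3 higher and 3 lower of 9 tested against Col-0-2, and 2 higher and 2 lower against Col-0-1. Silique wall markers (6 genes) summed to 197 to 218 FPKM in lec1-4, 152 to 166 FPKM in Col-0-2 and 191 to 195 FPKM in Col-0-1, and 5 of the 6 were higher than Col-0-2 while 0 passed against Col-0-1. Their part in the other differences was not tested. In whole seeds, fewer cells of a type and less RNA per cell cannot be told apart.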

How the data were processed

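The series held 12 poly-A RNA-seq libraries of developing seeds, 3 in each of 4 groups named in the sample titles. The deposited values were FPKM per gene and library, made by the authors; per the submitters' processing notes, the tools were DESeq 1.18.0, HTSeq 0.6.1, TopHat2 2.0.12 and Bowtie2 2.2.3. The genome build was not given in the sources used here, so no coordinates or promoter sequences are printed. Per the labels' protocols, libraries were built from 3 µg of RNA with poly-T beads and random primers, without strand marking, so overlapping and antisense genes cannot be told apart. Because FPKM are not counts, no count model was used.

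Genes that reached 1 FPKM in 3 or more of the 6 lec1-4 and Col-0-2 libraries were tested on log2(FPKM + 1) with limma 3.58.1 in R 4.3.3, with a variance trend, 1 mean per group, all 12 libraries in the fit and 8 residual degrees of freedom. Two-sided p-values were adjusted by Benjamini-Hochberg over all 19667 genes at 0.05. The fit was tested on simulated data. Low values gave whole fragments for too few genes to recover counts, so depths are estimates from exon lengths of the RefSeq TAIR10.1 annotation, which matched 32835 of the 33602 IDs and gave the gene symbols. A check for libraries deposited more than once found 0 identical non-zero values between any pair.

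The comparison, its members and the 25 gene lists were chosen with earlier results of these data known. Named genes were LEC1, the maturation regulators and storage proteins, the 12 largest rises and falls with a mean of at least 5 FPKM and no overlap, the same that also passed against Col-0-1, up to 5 members of each other list by p, and 3 organelle genes each way. Other list members given were picked after their values were seen. Alternatives covered the pseudocount, filter, wild-type set, scaling, length and GC trend, thresholds, replicate block and each left-out replicate.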

Additional observations from a re-analysis of the deposited data

How the results depend on the processing

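Against Col-0-1 in place of Col-0-2, 3200 nuclear genes were higher, 2080 nuclear genes were lower and 5 organelle genes were lower. A log2 limit of 1 left 928 nuclear genes higher, 1192 lower and 1 organelle gene higher, and a filter of 5 FPKM left 1 organelle gene higher and 46 lower, since fewer genes were tested. Leaving out each replicate in turn gave 7877 to 8130 nuclear genes higher, 4196 to 4363 lower, and 2 to 3 organelle genes higher with 82 to 90 lower. The replicate block gave 8445 nuclear genes higher and 4541 lower, and it changed no call among the 183 named genes tested. Same-numbered libraries correlated in their deviations at -0.0687, -0.0938 and -0.0596, and the other pairs at -0.0184 to 0.0868. With 3 libraries in each group, these values do not settle whether the numbers pair anything.

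Signs turned in 43 of the 183 named genes against Col-0-1: FUS3 -0.29, DPBF2 -0.55, EEL -0.84, BZO2H3 -0.11, WRI1 -0.39, DOG1 0.34, AGL15 -1.2, MYB118 -0.18, MYB115 -0.41, HSL1 -0.16, CRU2 -3.48, CRU3 -3.33, PAP85 -2.55, AT3G23450 0.39, AT1G07135 0.35, KTI1 0.04, AT3G17050 0.01, GRP-3 0.11, PRK -0.30, GAPB -0.16, SIGF -0.11, TT2 0.42, TT10 -0.09, AT2G47670 0.06, GA3OX1 -0.52, GA2 -0.04, GA20OX2 0.17, ABI4 -0.13, AFO -0.10, YAB3 -0.18, PHV -0.16, ER -0.42, ICE1 0.08, PDF2 -0.16, KCS10 0.12, LTP3 0.18, PHE1 0.65, SWEET11 -0.25, SHP1 -0.06, IND -0.33, LOX2 -0.06, ERF-1 0.33 and AT2G01010 0.05 (log2 changes). With the mean of both wild-type sets, 8 turned: EEL -0.16, BZO2H3 -0.02, WRI1 -0.14, AGL15 -0.60, MYB115 -0.15, CRU2 -1.42, CRU3 -1.29 and PAP85 -0.98. Median-ratio scaling turned BZO2H3 (-0.08), WRI1 (-0.06), AGL15 (-0.15) and MYB115 (-0.04), and upper-quartile scaling turned BZO2H3 (-0.02) and AGL15 (-0.09). Removing the length and GC trend turned BZO2H3 (-0.04), WRI1 (-0.08), AGL15 (-0.02), AGL18 (-0.08), MYB115 (-0.02), PKL (-0.10) and SHP1 (-0.09). Over left-out replicates, BZO2H3 ranged from -0.03 to 0.14, AGL15 from -0.05 to 0.08, MYB115 from -0.05 to 0.28 and SESA2 from -1.14 to 0.04. The cause was not tested. Upper-quartile scaling gave 7000 nuclear genes higher and 5570 lower. Keeping only list members at 1 FPKM in both groups, an alternative chosen after seeing the data, moved 2 list counts by over 1.5 times: LEA genes higher were 6 in place of 10, and heat shock genes lower were 2 in place of 4. The planned promoter motif description was not made, because the build is not stated.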

Other observations

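Further falls that lay below all 6 wild-type libraries included XTR6 and BCB, described here, and AT3G22060, HR4, AT5G64120, AT5G38197, AT1G13605 and AT3G15356, which had log2 changes of -3.20 to -2.74 against Col-0-2 and of -1.65 to -0.63 against Col-0-1. XTR6, a xyloglucan-modifying enzyme, had 1.84, 0.97 and 1.08 FPKM in lec1-4, against 23.3, 42.5 and 19.8 FPKM in Col-0-2 and 3.49, 3.54 and 4.24 FPKM in Col-0-1. BCB, a blue copper-binding protein, had 8.15, 7.6 and 8.43 FPKM in lec1-4, against 71.5, 131 and 90.4 FPKM in Col-0-2 and 13.7, 20 and 15.8 FPKM in Col-0-1. For both genes the larger difference was from Col-0-2, with log2 changes of -3.63 and -3.40, beside -1.07 and -0.93 against Col-0-1 (limma adjusted p = 2.1e-07 and 2.6e-07, and 0.0102 and 0.0164).

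Of the imprinted endosperm genes, PHE1, a MADS factor expressed from the paternal allele, had 1.22, 1.01 and 0.433 FPKM in lec1-4, against 8.33, 6.05 and 4.31 FPKM in Col-0-2 and 0.24, 0.16 and 0.161 FPKM in Col-0-1. FWA, a homeobox gene expressed from the maternal allele, had 9.82, 10.5 and 9.78 FPKM in lec1-4, against 7.55, 6.13 and 5.67 FPKM in Col-0-2 and 1.24, 0.986 and 1.38 FPKM in Col-0-1. FWA was higher than both sets, by 0.57 and 2.33 on the log2 scale (limma adjusted p = 0.00757 and 9.0e-07). PHE1 was lower than Col-0-2 by a change of -1.92 (adjusted p = 0.00012), and the difference of 0.65 from Col-0-1 did not pass (adjusted p = 0.138). The FWA call against Col-0-2 was lost when the trend over exon length and GC content was taken out (0.37, adjusted p = 0.0757) and when the pseudocount was 0.1 (0.64, adjusted p = 0.111).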
